A study of Mus musculus with 12 samples.

Results

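The comparison described here is between mesangial cultures of the lncMGC knockout (KO-SD) and of wild-type mice (WT-SD) in serum depletion, before any TGF-β was added. Its members are 6 of the 12 RNA-seq libraries of the series, 3 KO-SD and 3 WT-SD, chosen by the genotype and treatment that the sample labels give. The cells were primary mouse mesangial cells (MMC) from sieved glomeruli. Wild-type mice were C57BL/6. The knockout line, Ko5, carried a deletion just downstream of the lncMGC transcription start that was made with Cas9 and paired guide RNAs in C57BL/6J embryos, and its founders were crossed to C57BL/6. All 6 cultures were serum-depleted (SD, labelled 24 h) and received no TGF-β, while the other 6 libraries of the series came from the same genotypes treated with 10 ng/ml TGF-β (24 h). The study calls the samples of a group independent, but the sources used here do not give how many mice or separate cultures stood behind the 3 libraries of a group. The p-values therefore measure only the spread between libraries of a group, estimated over all 12 libraries. That spread was small, with a common coefficient of variation beyond counting error of 0.027. An effect of the deletion and a difference between the WT and KO cultures cannot be told apart. The Ko5 line is a single edited line, and lncMGC has no entry of its own among the counted genes. The study describes mouse lncMGC as sharing exons with Rian and Mirg, which are counted and given below.

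Mesangial cells are the contractile, pericyte-like cells between the glomerular capillaries, which they hold in place with a matrix of their own making. LncMGC is the host transcript of a large cluster of microRNAs in the imprinted region between Dlk1 and Dio3, and it is known as a transcript that TGF-β and endoplasmic reticulum stress induce in these cells. Serum depletion is the usual resting state for cultured mesangial cells, in which cells largely leave the cell cycle.

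Counts on genes were between 19898050 and 21088986 in the 6 libraries, and levels are given as CPM, the count of a gene relative to its library size after TMM scaling. Libraries of the same group were close: between 0 and 5 of the 11478 genes tested differed more than 2-fold between any 2 libraries of a genotype, and between 609 and 659 genes between a WT-SD and a KO-SD library. For these counts of genes 0.5 was added to each CPM value, which makes the folds of genes at low CPM smaller. KO-SD replicate 1 was the farthest from its group. The share of reads outside annotated exons was 15.2% to 15.4% in WT-SD and 12.7% to 13.4% in KO-SD, and the ribosomal RNA gene Rn45s took 1.51% to 2.07% of counts in WT-SD and 0.636% to 0.980% in KO-SD; the part of either in the gene results was not tested. The Y-linked genes Ddx3y, Uty, Kdm5d and Eif2s3y were read in all 6 libraries, and Xist was under 0.5 CPM in each. Nnt, of which C57BL/6J mice lack several exons, was at 43.1, 42.1 and 47.6 CPM in the WT-SD libraries and 45.4, 51.6 and 50.4 CPM in the KO-SD libraries.

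The labelled cell type was checked against marker lists. Of 12 mesangial markers, 10 passed the filter on expression, among them Pdgfrb, the PDGF receptor of pericytes, at 289 ± 4.2 CPM in WT-SD against 306 ± 8.5 CPM in KO-SD (SD, n = 3 in each group, as for every mean below). Itga8, an integrin that marks mesangial cells in the kidney, was at 2.90 ± 0.25 CPM in WT-SD against 3.05 ± 0.35 CPM in KO-SD, and Agtr1a, the angiotensin receptor, was at 0 counts in all 6 libraries. Summed over the list, the level was 2974 to 3109 CPM in WT-SD against 5193 to 5362 CPM in KO-SD, with 7 of 10 members higher and 2 lower at FDR <5%, where 30.6% of all genes were higher and 25.3% lower. Most of the rise in the sum came from Acta2, smooth muscle actin. The 2 lower members were Des and Serpine2, and the values of these genes are given below. The podocyte marker Nphs1, which builds the slit diaphragm, and the endothelial genes Pecam1 and Cdh5 had at most 0.2 CPM in any library. The 11 endothelial markers together summed to 33.8 to 34.3 CPM in WT-SD against 17.8 to 19.2 CPM in KO-SD, and Ehd3, the member that passed the filter, was lower (log2 fold change -0.93 ± 0.06 (SE), adjusted p = 2.3e-14). The 6 renin cell and pericyte markers summed to 122 to 132 CPM in WT-SD against 204 to 231 CPM in KO-SD.

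Markers of other cell types moved with the genotype, and their part in the results that follow was not tested. In bulk RNA, fewer cells of a type and less RNA per cell cannot be told apart. The 22 macrophage markers summed to 43.1 to 46.2 CPM in WT-SD against 8.87 to 10.6 CPM in KO-SD. In KO-SD, 14 of them had no more than 3 counts in any library, against 3 in WT-SD, and Adgre1, Itgam, C1qa, C1qb, C1qc, Tyrobp, Ctss, Spi1 and Aif1 were at 0 in all KO-SD libraries. Csf1r, the receptor of macrophage colony-stimulating factor, was at 2.23, 1.74 and 2.01 CPM in the WT-SD libraries and 0.459, 0.676 and 0.642 CPM in the KO-SD libraries. Ptprc, the pan-leukocyte antigen CD45, had 39 counts over the WT-SD libraries and 1 over the KO-SD libraries, a 37.5-fold difference with an exact 95% counting interval of 6.34 to 1518.

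The epithelial marker lists of the glomerulus and tubule were also lower in sum. The 12 podocyte markers summed to 1059 to 1069 CPM in WT-SD against 741 to 764 CPM in KO-SD. 7 of the 8 tested were lower in KO-SD, among them Clic5, an ion channel-like protein of the podocyte membrane, at 64.3, 59.7 and 61.4 CPM in the WT-SD libraries and 4.23, 5.02 and 4.86 CPM in the KO-SD libraries, and Wt1, a transcription factor of kidney development, at 98.0, 99.5 and 99.8 CPM in the WT-SD libraries and 23.8, 28.0 and 24.1 CPM in the KO-SD libraries. For both genes the groups were far apart. The parietal epithelial markers summed to 472 to 490.2 and 219 to 236 CPM, with the tight junction gene Cldn1 at 229 against 62.0 CPM and the kidney lineage factor Pax8 at 241 against 157 CPM in WT-SD and KO-SD. The 13 tubular markers summed to 83.0 to 91.3 and 26.8 to 28.8 CPM. Of the 5 tested, Havcr1, Cdh16 and Lrp2 were lower and Aqp1 and Krt19 higher, with log2 fold changes from -4.91 to 3.18. Over all genes 30.6% were higher and 25.3% lower. The fibroblast markers were higher in sum, at 18.7 to 20.1 and 70.7 to 73.7 CPM, of which the proteoglycan Dcn was the main part. Lymphocyte markers were at or near 0 in every library.

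At the lncMGC locus on chromosome 12 of mm10, the imprinted non-coding RNAs were read in both genotypes and were higher in KO-SD. Rian was at 45.3, 40.2 and 41.8 CPM in the WT-SD libraries and 69.2, 70.9 and 69.6 CPM in the KO-SD libraries (log2 fold change 0.72 ± 0.047 (SE), adjusted p = 2.8e-14). Meg3, the RNA nearest to Dlk1, was at 155, 159 and 149.8 CPM in the WT-SD libraries and 180.1, 209.5 and 208 CPM in the KO-SD libraries (log2 fold change 0.37 ± 0.039 (SE), adjusted p = 2.0e-09). Mirg, which hosts microRNAs downstream (chr12:109734981-109749458), did not pass the filter on expression and, like Dlk1 and Begain, was tested without that filter; it was at 2.14, 2.17 and 2.69 CPM in the WT-SD libraries and 3.31, 4.30 and 3.39 CPM in the KO-SD libraries (log2 fold change 0.68 ± 0.16 (SE), adjusted p = 6.5e-05). The 3 RNAs had no WT-SD library at or above a KO-SD library. By RT-qPCR the study reported Dlk1, Rian, Meg3 and Mirg as decreased in this knockout line. For Rian, Meg3 and Mirg that is the opposite direction to these counts, and Dlk1 is given below. The study also reported reduced peaks of open chromatin (ATAC-seq) at Dlk1, Meg3 and Rian. The reason for the difference between RT-qPCR and these counts was not tested.

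The protein-coding genes that flank the imprinted RNAs were mixed. Dlk1, a paternally expressed Notch-like ligand, was at 1.41, 1.61 and 1.64 CPM in the WT-SD libraries and 1.65, 1.45 and 1.74 CPM in the KO-SD libraries, which overlapped (adjusted p = 0.79). The decrease that the study reported for Dlk1 by RT-qPCR was thus not seen in these counts. Dio3, the deiodinase that inactivates thyroid hormone, was at 0.547, 0.478 and 0.866 CPM in the WT-SD libraries and 2.25, 1.69 and 1.88 CPM in the KO-SD libraries (log2 fold change 1.62 ± 0.26 (SE), adjusted p = 3.6e-06), and Begain, at the other flank, was higher too, at 0.477 against 1.12 CPM (log2 fold change 1.25 ± 0.32 (SE), adjusted p = 2.8e-04). Of the genes just outside, Evl, an actin regulator, was higher (log2 fold change 0.41 ± 0.041 (SE), adjusted p = 8.6e-10) and Yy1, a zinc finger factor, was not called (adjusted p = 0.54). Rtl1 had 0 counts in all 6 libraries. Over the whole list of 18 genes of the locus, 6 of 11 tested were higher and 1 lower, beside 30.6% and 25.3% of all genes.

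The genotype difference in serum depletion reached most expressed genes, mostly by small amounts. Of 11478 genes with RPKM >1 in at least 1 library, 3514 were higher (30.6%) and 2901 lower (25.3%) in KO-SD at FDR <5%. With the additional demand of a fold change >2, 372 were higher (3.24%) and 358 lower (3.12%). The median over all genes tested was 0.02 on the log2 scale, and 78.3% of the calls were of less than 1.5-fold. The split of the calls at any fold depended on the scaling: 54.8% of them were higher in KO-SD with TMM and 37.0% with library size alone, where 2446 were higher and 4161 lower.

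The even split of the genes past 2-fold held under the RPKM filter: 471 were higher and 607 lower with CPM >1 in at least 3 libraries, and 600 and 1007 with no filter. More than 4-fold, 78 genes were higher and 111 lower, and more than 8-fold, 12 were higher and 52 lower. The genes higher by more than 2-fold took 1.58 ± 0.04% of the scaled counts in WT-SD and 4.41 ± 0.042% in KO-SD, and those lower by more than 2-fold 1.55 ± 0.0076% and 0.551 ± 0.0098%. The direction of these changes follows from the choice of the genes in the same libraries. The KO-SD and WT-SD libraries did not overlap for 370 of the higher and 355 of the lower genes, and for 59.2% of all genes tested. Most were of moderate level: 216 of the higher and 206 of the lower genes were at 5 to 50 CPM in the group where they were higher, and 13 and 3 at 500 CPM or more.

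**Figure D1:**
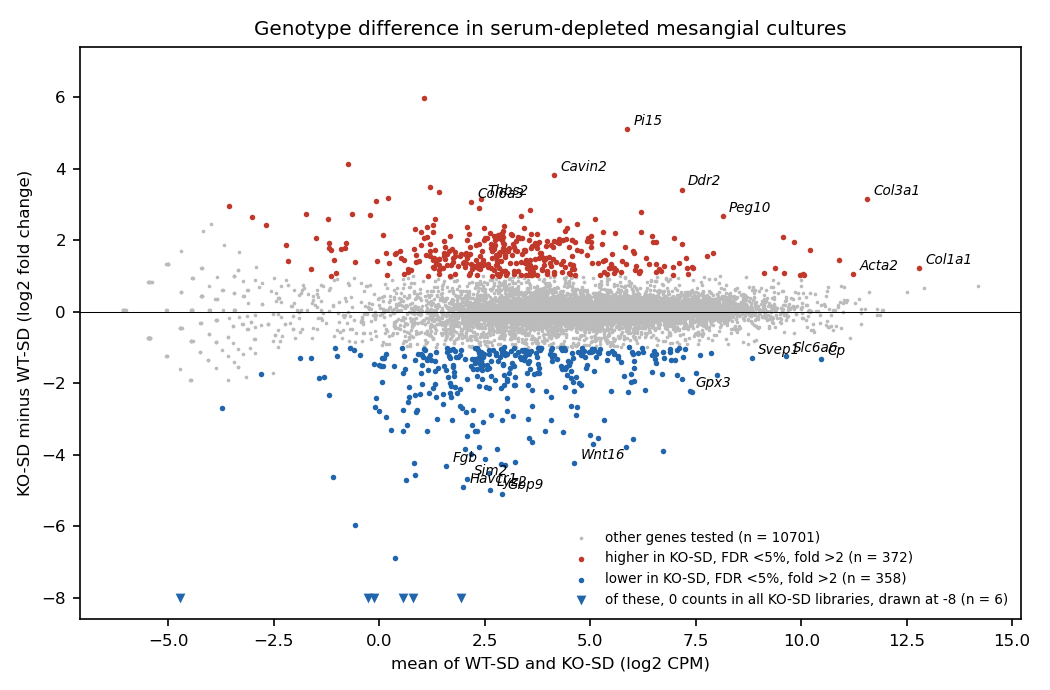
Log2 fold change of KO-SD over WT-SD (y axis) against the mean level of both groups in log2 CPM (x axis), 1 point per gene tested; red and blue points passed FDR <5% and fold change >2, and triangles at the bottom edge mark 6 called genes without a count in any KO-SD library, while 47 genes at 0 in a group that are not so called are left out. Most genes lie near 0, and the lower side reaches farther from it than the higher side.

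The genes described next are the 10 with the largest rise and the 10 with the largest fall among called genes at 5 CPM or more whose KO-SD and WT-SD libraries did not overlap, so separate groups are a condition of the choice. Pi15, a secreted peptidase inhibitor, was at 3.14, 2.95 and 3.83 CPM in the WT-SD libraries and 128, 104 and 109 CPM in the KO-SD libraries (log2 fold change 5.11 ± 0.088 (SE), adjusted p = 1.0e-28). Ddr2, a receptor tyrosine kinase that binds fibrillar collagen, was at 25.2, 25.9 and 22.9 CPM in the WT-SD libraries and 266, 262 and 260.2 CPM in the KO-SD libraries (log2 fold change 3.41 ± 0.044 (SE), adjusted p = 8.6e-32). Tll1, a tolloid-like protease that trims procollagen, was at 19.4, 18.2 and 19.1 CPM in the WT-SD libraries and 138, 123 and 128 CPM in the KO-SD libraries (log2 fold change 2.78 ± 0.048 (SE), adjusted p = 1.2e-28). For each of these 3 genes the lowest KO-SD library was more than 6 times the highest WT-SD library.

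Cthrc1, a secreted protein of collagen-rich repair tissue, went from 2.93 ± 0.63 CPM in WT-SD to 20.9 ± 1.6 CPM in KO-SD (log2 fold change 2.83 ± 0.12 (SE), adjusted p = 6.7e-19). Cavin2, a coat protein of caveolae, was at 2.92, 2.26 and 1.87 CPM in the WT-SD libraries and 37.9, 29.5 and 31.7 CPM in the KO-SD libraries (log2 fold change 3.81 ± 0.12 (SE), adjusted p = 3.7e-22). Wnt2b, a Wnt ligand, was at 1.23, 1.43 and 0.957 CPM in the WT-SD libraries and 9.46, 8.59 and 9.17 CPM in the KO-SD libraries (log2 fold change 2.90 ± 0.16 (SE), adjusted p = 6.0e-16). Peg10, an imprinted gene of retrotransposon origin on the paternal allele, was at 73.4, 78.1 and 76.8 CPM in the WT-SD libraries and 475, 489 and 496 CPM in the KO-SD libraries (log2 fold change 2.68 ± 0.036 (SE), adjusted p = 1.9e-31).

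Thbs2, a matricellular thrombospondin, was called higher with a wide spread, at 0.866, 1.22 and 1.14 CPM in the WT-SD libraries and 18, 6.28 and 4.50 CPM in the KO-SD libraries (log2 fold change 3.15 ± 0.41 (SE), adjusted p = 1.2e-07). Its high KO-SD library was replicate 1, without which the log2 fold change was 2.31, while with all libraries the smallest of the 10 was 2.68, for Peg10. Col6a3, a chain of the microfibrillar collagen VI, was at 1.18, 0.782 and 0.912 CPM in the WT-SD libraries and 7.58, 6.42 and 10.1 CPM in the KO-SD libraries (log2 fold change 3.07 ± 0.23 (SE), adjusted p = 1.2e-12).

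The largest falls included immune, epithelial and signalling genes. Adgre1, which encodes the macrophage antigen F4/80, was at 7.61, 7.73 and 7.71 CPM in the WT-SD libraries and 0, 0 and 0 CPM in the KO-SD libraries, at least 54.8-fold lower when KO-SD is set to the floor of 3 counts per library. Lyz2, the myeloid lysozyme, was at 10.8, 13.4 and 11.9 CPM in the WT-SD libraries and 0.459, 0.386 and 0.275 CPM in the KO-SD libraries (log2 fold change -4.99 ± 0.2 (SE), adjusted p = 1.4e-19), and Gbp9, an interferon-inducible guanylate-binding protein, at 15.5, 15.2 and 12.7 CPM in the WT-SD libraries and 0.689, 0.290 and 0.275 CPM in the KO-SD libraries (log2 fold change -5.09 ± 0.19 (SE), adjusted p = 4.7e-20). Adgre1 and Lyz2 are among the macrophage markers given above.

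Havcr1, also called KIM-1 and known from injured proximal tubule, was at 6.88, 9.21 and 6.88 CPM in the WT-SD libraries and 0.230, 0.338 and 0.183 CPM in the KO-SD libraries (log2 fold change -4.91 ± 0.28 (SE), adjusted p = 1.1e-15). Fgb, the fibrinogen beta chain, was at 5.65, 5.87 and 5.70 CPM in the WT-SD libraries and 0.276, 0.386 and 0.183 CPM in the KO-SD libraries (log2 fold change -4.33 ± 0.23 (SE), adjusted p = 1.4e-16). Cadps2, a factor of dense-core vesicle release, was at 11.5, 11.9 and 11.2 CPM in the WT-SD libraries and 0.689, 0.386 and 0.413 CPM in the KO-SD libraries (log2 fold change -4.52 ± 0.18 (SE), adjusted p = 1.2e-19). These genes were below 1 CPM in every KO-SD library, and the sum of the tubular markers, of which Havcr1 is a member, was lower as given above.

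Among regulators, Sim2, a bHLH-PAS transcription factor, was at 8.47, 8.91 and 7.16 CPM in the WT-SD libraries and 0.276, 0.338 and 0.321 CPM in the KO-SD libraries (log2 fold change -4.69 ± 0.2 (SE), adjusted p = 1.0e-18), and the zinc finger factor Tshz2 at 14.1, 14 and 14.1 CPM in the WT-SD libraries and 0.413, 0.869 and 0.917 CPM in the KO-SD libraries (log2 fold change -4.26 ± 0.15 (SE), adjusted p = 8.8e-21). Cul9, a cullin of ubiquitin ligases, was at 16.0, 14.4 and 14.9 CPM in the WT-SD libraries and 0.873, 0.773 and 0.642 CPM in the KO-SD libraries (log2 fold change -4.30 ± 0.14 (SE), adjusted p = 5.1e-22). Wnt16, a Wnt ligand, was at 46.1, 46.7 and 47.1 CPM in the WT-SD libraries and 2.30, 2.61 and 2.48 CPM in the KO-SD libraries (log2 fold change -4.24 ± 0.088 (SE), adjusted p = 9.5e-27), and it was the most abundant of the 10 in WT-SD.

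**Figure D2:**
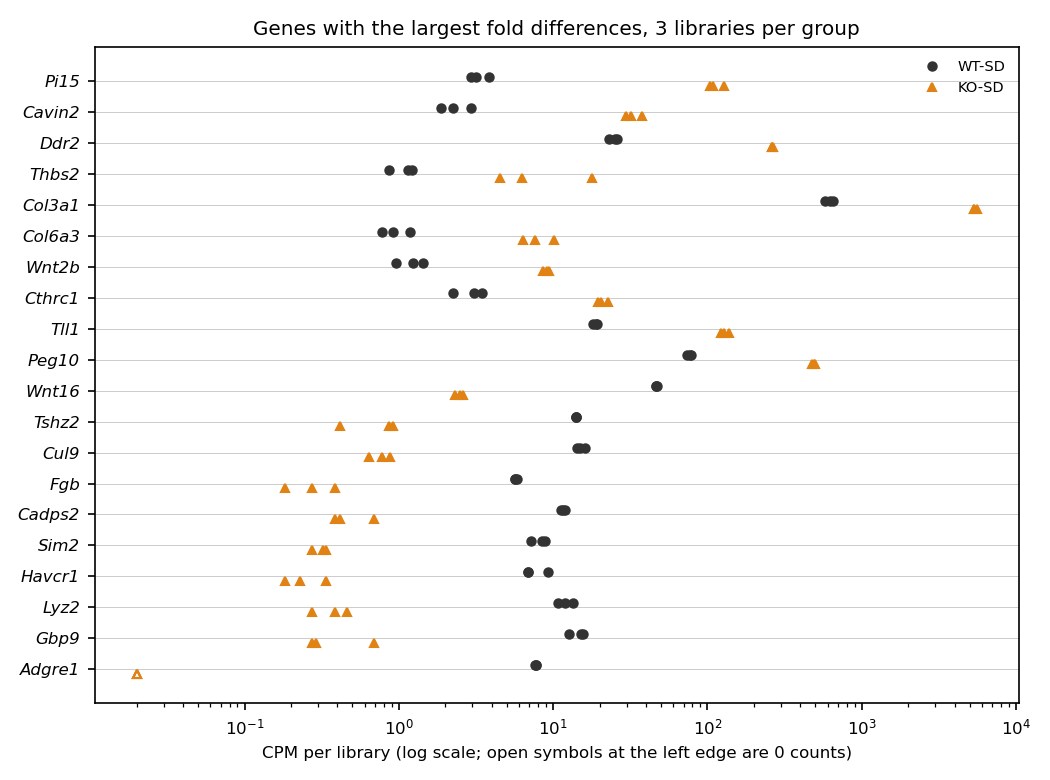
CPM in each of the 3 WT-SD (circles) and 3 KO-SD (triangles) libraries, on a log axis, for the 10 genes with the largest rise and the 10 with the largest fall among those without overlap between the groups; open triangles at the left edge are libraries with 0 counts. Thbs2 has the widest spread within KO-SD, from 4.50 to 18 CPM.

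Among the genes called at fold change >2, those with the largest rises by amount of RNA were nearly all collagens. Genes that rose by less than 2-fold were not ranked here. Col1a1, a chain of collagen I, was at 4211, 4147 and 4515 CPM in the WT-SD libraries and 9352, 10111 and 10401 CPM in the KO-SD libraries (log2 fold change 1.21 ± 0.029 (SE), adjusted p = 3.4e-25), and Col3a1, of collagen III, at 618, 578 and 655 CPM in the WT-SD libraries and 5372, 5346 and 5581 CPM in the KO-SD libraries (log2 fold change 3.14 ± 0.031 (SE), adjusted p = 1.9e-34). Col12a1, which lies on collagen I fibrils, was at 1010, 1030 and 1045 CPM in the WT-SD libraries and 2774, 2754 and 2802 CPM in the KO-SD libraries (log2 fold change 1.43 ± 0.021 (SE), adjusted p = 1.7e-30). Col11a1 and Col8a1 followed, from 553 ± 6.8 CPM in WT-SD to 1824 ± 8.6 CPM in KO-SD and from 370.4 ± 2.4 CPM in WT-SD to 1436 ± 85.2 CPM in KO-SD. The other gene of the 6 was Acta2, smooth muscle actin, at 1498, 1592 and 1620 CPM in the WT-SD libraries and 3321, 3229 and 3198 CPM in the KO-SD libraries (log2 fold change 1.05 ± 0.024 (SE), adjusted p = 7.1e-26).

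Among the genes called at fold change >2, the largest losses of RNA were in Cp, Slc6a6, Svep1, Tmem176b, Pdpn and Gpx3. Genes that fell by less than 2-fold were not ranked here, and Col1a2, given below, lost more CPM than Slc6a6. Cp, ceruloplasmin, a copper-binding ferroxidase, was at 2037, 2032 and 2016 CPM in the WT-SD libraries and 839, 788 and 778 CPM in the KO-SD libraries (log2 fold change -1.34 ± 0.027 (SE), adjusted p = 4.6e-27). Slc6a6, the taurine transporter, went from 1125 ± 24.3 CPM in WT-SD to 476 ± 9 CPM in KO-SD, and Svep1, a large adhesion protein of the matrix, from 652 ± 12.8 CPM in WT-SD to 263 ± 6.4 CPM in KO-SD. Pdpn, podoplanin, was at 282, 276 and 286 CPM in the WT-SD libraries and 60.5, 59.6 and 57.5 CPM in the KO-SD libraries (log2 fold change -2.25 ± 0.03 (SE), adjusted p = 1.9e-31), and Gpx3, the secreted glutathione peroxidase, at 267, 281 and 260.1 CPM in the WT-SD libraries and 61.9, 58.2 and 54.1 CPM in the KO-SD libraries (log2 fold change -2.21 ± 0.039 (SE), adjusted p = 1.3e-28). Tmem176b, a membrane protein, went from 401 ± 4.9 CPM in WT-SD to 117 ± 1.3 CPM in KO-SD. For all 6 the groups were separate.

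Functions were read through 43 gene lists, each described by how many of its tested members passed FDR <5% in each direction, beside the 30.6% higher and 25.3% lower over all genes, and by its median log2 fold change, beside 0.02 over all genes. The median was above that of all genes in 27 lists and below it in 16. Where counts with library size alone are given, they stand beside 2446 genes higher and 4161 lower of all 11478 tested under that scaling.

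**Figure D3:**
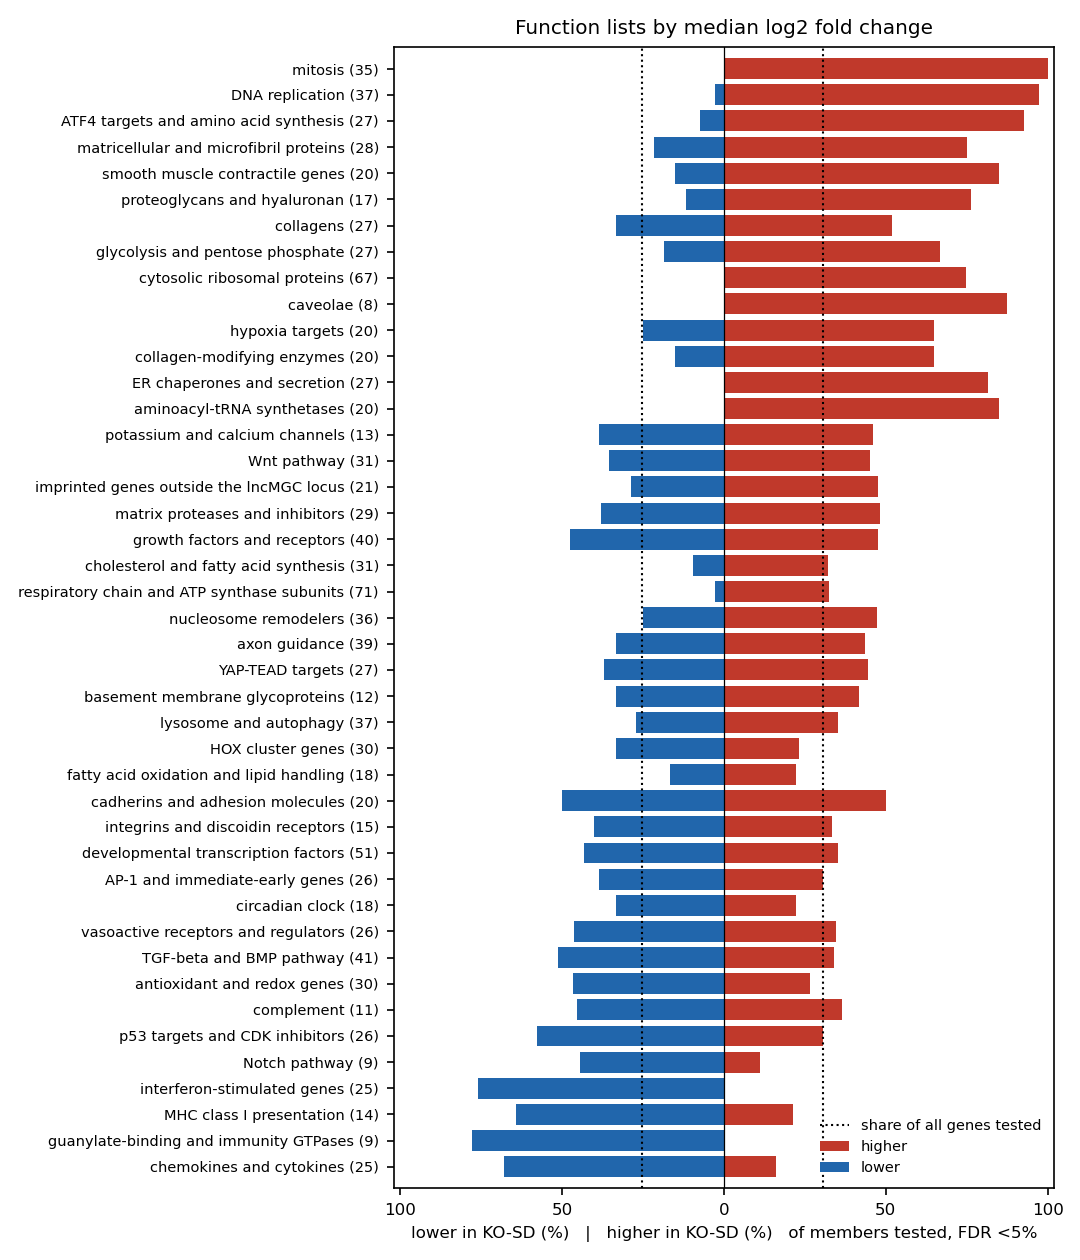
Share of the tested members of each function list that was higher (red, to the right) or lower (blue, to the left) in KO-SD at FDR <5%, with the number tested in parentheses and the shares over all genes as dotted lines. Mitosis, DNA replication and ATF4 targets stand at the top, and chemokines and cytokines, guanylate-binding proteins and MHC class I genes at the bottom.

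The cell cycle lists were the most one-sided. All 35 mitosis genes were tested and all 35 were higher in KO-SD, 34 of them more than 2-fold, with a median of 1.96; only Smc4, a condensin subunit, was under 2-fold, at 67.6 against 103 CPM in WT-SD and KO-SD. Nuf2, of the kinetochore, was at 3.60, 2.56 and 4.56 CPM in the WT-SD libraries and 18.7, 17.5 and 17.4 CPM in the KO-SD libraries (log2 fold change 2.33 ± 0.12 (SE), adjusted p = 7.5e-17), and Cenpa, the centromeric histone, at 2.78, 1.74 and 3.47 CPM in the WT-SD libraries and 11.3, 12.1 and 14.7 CPM in the KO-SD libraries (log2 fold change 2.26 ± 0.15 (SE), adjusted p = 2.9e-14). Cyclin B1 (Ccnb1) went from 1.58 ± 0.23 CPM in WT-SD to 7.21 ± 0.39 CPM in KO-SD, topoisomerase Top2a from 33.0 ± 2.6 CPM in WT-SD to 142 ± 1.7 CPM in KO-SD and the proliferation antigen Mki67 from 39.2 ± 5.1 CPM in WT-SD to 149.7 ± 2.8 CPM in KO-SD, genes chosen after their values were seen. Summed, the 35 genes were at 352 to 409 CPM in WT-SD against 1230 to 1252 CPM in KO-SD.

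In the DNA replication list, 36 of 37 tested members were higher and 1 lower, 15 of them more than 2-fold higher, with a median of 0.91. Pole, the leading-strand polymerase, was at 6.20, 6.91 and 6.98 CPM in the WT-SD libraries and 22.5, 26.1 and 23.5 CPM in the KO-SD libraries (log2 fold change 1.84 ± 0.085 (SE), adjusted p = 5.4e-18), and Uhrf1, which carries DNA methylation through replication, at 6.65, 6.60 and 7.39 CPM in the WT-SD libraries and 21.1, 22.1 and 21.3 CPM in the KO-SD libraries (log2 fold change 1.64 ± 0.086 (SE), adjusted p = 1.3e-16). Mcm5, of the replicative helicase, went from 7.4 ± 0.91 CPM in WT-SD to 21.5 ± 0.18 CPM in KO-SD and Cdc6, which loads it, from 2.21 ± 0.33 CPM in WT-SD to 5.70 ± 0.35 CPM in KO-SD. The exception was Rrm1, the large subunit of ribonucleotide reductase, at 291, 286 and 281 CPM in the WT-SD libraries and 244, 241 and 227 CPM in the KO-SD libraries (log2 fold change -0.27 ± 0.029 (SE), adjusted p = 2.6e-09), while Rrm2, the small subunit, which is made in S phase, was higher at 15.2 against 45.5 CPM. The 2 subunits of that enzyme thus moved in opposite directions.

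Mitosis genes are known for promoters with cell cycle homology regions and CCAAT boxes, and replication genes for E2F motifs. A few promoters that hold these letters are printed, taken from RefSeq windows of GRCm38.p6 that run from 250 bases before to 50 after a gene's start. Capitals in the 2 mitosis promoters mark the cell cycle homology region (TTTGAA or TTCGAA) and the CCAAT box (CCAAT), and capitals in the 2 replication promoters mark the E2F motif (TTTCCCGC, TTTCGCGC, TTTGCCGC or TTTGGCGC), each searched on both strands. The promoters are examples from members with a large change, at 5 CPM or more, that hold the motif. Not every member was eligible for printing, so they need not be the members with the largest change. 
Cenpa promoter (chr5:30666636-30666935, plus strand): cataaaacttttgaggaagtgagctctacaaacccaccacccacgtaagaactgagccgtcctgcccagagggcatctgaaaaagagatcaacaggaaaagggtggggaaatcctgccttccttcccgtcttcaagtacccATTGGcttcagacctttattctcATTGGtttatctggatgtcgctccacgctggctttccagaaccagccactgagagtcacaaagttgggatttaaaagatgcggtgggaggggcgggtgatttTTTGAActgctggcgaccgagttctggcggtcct
Cenpf promoter (chr1:189688037-189688336, minus strand): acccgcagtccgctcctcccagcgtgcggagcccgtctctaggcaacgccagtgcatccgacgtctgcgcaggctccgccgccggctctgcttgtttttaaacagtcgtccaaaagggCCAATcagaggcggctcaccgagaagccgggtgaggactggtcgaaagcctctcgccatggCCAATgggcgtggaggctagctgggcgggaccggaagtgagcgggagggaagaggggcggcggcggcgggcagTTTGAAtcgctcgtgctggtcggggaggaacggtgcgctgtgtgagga
Mcm5 promoter (chr8:75109259-75109558, plus strand): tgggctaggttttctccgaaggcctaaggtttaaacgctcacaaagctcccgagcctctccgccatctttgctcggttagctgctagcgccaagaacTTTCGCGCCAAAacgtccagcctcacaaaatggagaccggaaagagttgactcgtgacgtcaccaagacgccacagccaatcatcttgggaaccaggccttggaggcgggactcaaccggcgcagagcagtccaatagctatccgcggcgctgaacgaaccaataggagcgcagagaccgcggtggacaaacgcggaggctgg
Cdc6 promoter (chr11:98907901-98908200, plus strand): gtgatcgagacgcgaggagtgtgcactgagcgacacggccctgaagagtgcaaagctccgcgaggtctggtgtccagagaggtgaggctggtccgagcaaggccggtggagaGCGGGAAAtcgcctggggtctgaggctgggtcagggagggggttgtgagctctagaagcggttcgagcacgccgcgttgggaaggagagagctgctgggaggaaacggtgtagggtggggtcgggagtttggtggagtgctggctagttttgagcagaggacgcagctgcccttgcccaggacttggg

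In Cenpa, the centromeric histone, the cell cycle homology region lies 16 bases after the start and CCAAT boxes lie 109 and 86 bases before it, read as ATTGG on the printed strand. In Cenpf, a kinetochore protein that went from 12.2 ± 1.1 CPM in WT-SD to 53 ± 1.8 CPM in KO-SD, they lie 2 bases after and 132 and 71 bases before the start. In Mcm5, E2F matches on the 2 strands overlap, 153 and 149 bases before the start. A window was found for 30 of the 35 mitosis genes, and 24 of them (80.0%) held the cell cycle homology region, against 13.5% of the 8993 tested genes with a window and 19.4% of all 27025 RefSeq genes. The CCAAT box was in 24 of the 30 windows (80.0%), against 39.1% of tested genes with a window. The E2F motif was in 10 of 29 replication windows (34.5%), against 4.28% of tested genes, and in 2 of 30 mitosis windows, so most replication windows did not hold it. Of the 29 replication windows, 18 held the CCAAT box (62.1%) and 6 the cell cycle homology region (20.7%). These are matches of letters and not measured sites.

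Inhibitors of the cycle went the other way in part. In the list of p53 targets and CDK inhibitors, 8 of 26 tested members were higher and 15 lower, with a median of -0.13. Cdkn1a, the inhibitor p21, was at 773, 768 and 752 CPM in the WT-SD libraries and 552, 565 and 569 CPM in the KO-SD libraries (log2 fold change -0.44 ± 0.022 (SE), adjusted p = 3.9e-17), and Fas, the death receptor, at 144, 144 and 139.8 CPM in the WT-SD libraries and 110.3, 108 and 105 CPM in the KO-SD libraries (log2 fold change -0.40 ± 0.035 (SE), adjusted p = 2.7e-11). Cdkn2c, the inhibitor p18, was higher at 15.8, 16.0 and 15.7 CPM in the WT-SD libraries and 22.7, 24.3 and 23.6 CPM in the KO-SD libraries (log2 fold change 0.57 ± 0.064 (SE), adjusted p = 6.0e-09), and so was the kinase Plk2 at 277 against 370.0 CPM. None of the 26 members differed by more than 2-fold.

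In the collagen list, 14 of 27 tested members were higher and 9 lower, with a median of 0.35. Of collagens I, III, VI, VIII, XI and XII, the chains Col3a1, Col6a1, Col6a2, Col6a3, Col8a1, Col8a2, Col11a1, Col12a1 and Col1a1 made up the 9 members higher by more than 2-fold. The 5 lower by more than 2-fold were chains of basement membranes and their borders, Col4a3, Col4a4, Col4a6, Col15a1 and Col18a1. Col4a3, of the mature glomerular basement membrane, was at 193, 205 and 198 CPM in the WT-SD libraries and 11, 14.6 and 14 CPM in the KO-SD libraries (log2 fold change -3.91 ± 0.053 (SE), adjusted p = 1.9e-31), and Col4a4, its head-to-head neighbour in the genome, at 110.3, 124 and 120.2 CPM in the WT-SD libraries and 9.97, 10.1 and 9.86 CPM in the KO-SD libraries (log2 fold change -3.56 ± 0.063 (SE), adjusted p = 1.5e-28). The study reported both chains as lower in the knockout by RNA-seq in both conditions, but its RT-qPCR detected no such decrease in serum depletion. The reason for that difference between methods was not tested. Podocytes are a known source of both chains, the podocyte markers were lower as given above, and the part of podocytes in the genotype difference was not tested.

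The chains of collagens IV and I did not move together. Of collagen IV, the ubiquitous chains differed little: Col4a1 went from 3490 ± 65.2 CPM in WT-SD to 3657 ± 154 CPM in KO-SD and Col4a2 from 2772 ± 52.8 CPM in WT-SD to 2706 ± 87.0 CPM in KO-SD (adjusted p = 0.17), while Col4a5 was at 961 against 824 CPM and Col4a6 at 104 against 27.1 CPM. Of collagen I, Col1a1 was higher as given above while Col1a2, the other chain of the same trimer, was at 2697, 2717 and 3083 CPM in the WT-SD libraries and 1576, 1714 and 1794 CPM in the KO-SD libraries (log2 fold change -0.74 ± 0.037 (SE), adjusted p = 5.5e-17). The Col1a2 groups did not overlap, and the chain was chosen for naming after its values were seen. All 3 measured chains of collagen V were higher, between 0.65 and 0.70 on the log2 scale.

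Other matrix lists leaned the same way. Of proteoglycans and hyaluronan genes, 13 of 17 tested members were higher and 2 lower, with a median of 0.41, led by Dcn, decorin, at 10.4, 9.12 and 9.98 CPM in the WT-SD libraries and 63.1, 59.2 and 55.7 CPM in the KO-SD libraries (log2 fold change 2.59 ± 0.062 (SE), adjusted p = 3.7e-25), and Prelp, a leucine-rich repeat proteoglycan, from 7.19 ± 0.52 CPM in WT-SD to 36.4 ± 1.8 CPM in KO-SD. Sdc4, a cell surface syndecan, was lower at 310.3 against 199 CPM. Of matricellular and microfibril proteins, 21 of 28 tested members were higher and 6 lower, with a median of 0.54. Matn2, a matrilin, was at 8.93, 9.82 and 9.62 CPM in the WT-SD libraries and 36.2, 39.3 and 37.5 CPM in the KO-SD libraries, and Efemp1, fibulin-3, was lower at 35.1, 35.7 and 41.3 CPM in the WT-SD libraries and 3.22, 3.43 and 4.08 CPM in the KO-SD libraries (log2 fold change -3.38 ± 0.093 (SE), adjusted p = 1.3e-23).

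Of collagen-modifying enzymes, 13 of 20 tested members were higher and 3 lower, with a median of 0.29. P4ha1, the prolyl hydroxylase subunit, was higher at 188, 189 and 203 CPM in the WT-SD libraries and 335, 334 and 335 CPM in the KO-SD libraries, and P3h2, which acts on basement membrane collagen, lower at 16.6, 14.3 and 16.1 CPM in the WT-SD libraries and 7.26, 6.86 and 7.02 CPM in the KO-SD libraries (log2 fold change -1.15 ± 0.1 (SE), adjusted p = 3.1e-11). The basement membrane glycoproteins were divided, with 5 of 12 higher and 4 lower, and 4 and 6 with library size alone. Nid1, nidogen, was higher at 492, 489 and 505 CPM in the WT-SD libraries and 1029, 1053 and 1041 CPM in the KO-SD libraries and the laminin chain Lamb2 lower at 391 against 283 CPM. Of matrix proteases and inhibitors, 14 of 29 tested members were higher and 11 lower, with a median of 0.10, with the membrane protease Mmp14 at 659.9, 658 and 655 CPM in the WT-SD libraries and 1349, 1344 and 1332 CPM in the KO-SD libraries and the inhibitor Serpine2, protease nexin-1, at 286, 272 and 275 CPM in the WT-SD libraries and 89.2, 85.8 and 76.6 CPM in the KO-SD libraries.

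Contractile genes were higher as a group, with exceptions among muscle markers. Of smooth muscle contractile genes, 17 of 20 tested members were higher and 3 lower, with a median of 0.52. Actg2, enteric smooth muscle actin, was at 16.2, 18.5 and 16.4 CPM in the WT-SD libraries and 82.9, 79.4 and 72.6 CPM in the KO-SD libraries (log2 fold change 2.20 ± 0.055 (SE), adjusted p = 1.3e-24), and Myl9, the regulatory light chain, at 95.7, 100.1 and 104 CPM in the WT-SD libraries and 247, 236 and 234 CPM in the KO-SD libraries (log2 fold change 1.26 ± 0.033 (SE), adjusted p = 4.3e-24). Des, the intermediate filament desmin, was lower, at 7.15, 8.78 and 7.11 CPM in the WT-SD libraries and 0.551, 0.531 and 0.505 CPM in the KO-SD libraries (log2 fold change -3.85 ± 0.19 (SE), adjusted p = 2.8e-17), and so was Mylk, the kinase of that light chain, at 328, 324 and 315 CPM in the WT-SD libraries and 144, 151 and 137 CPM in the KO-SD libraries (log2 fold change -1.16 ± 0.033 (SE), adjusted p = 2.4e-23). The light chain and its kinase were therefore on opposite sides. Of the caveola genes, 7 of 8 were higher and 0 lower, with Cavin3 at 34.9 against 60.1 CPM. With library size alone, 5 caveola genes were higher and 1 lower.

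Adhesion genes were divided. Of cadherins and adhesion molecules, 10 of 20 were higher and 10 lower. Cadm1, an immunoglobulin-like adhesion molecule, was at 68.0, 69.5 and 63.7 CPM in the WT-SD libraries and 5.79, 5.41 and 6.01 CPM in the KO-SD libraries (log2 fold change -3.55 ± 0.068 (SE), adjusted p = 1.6e-27), and Cdh16, the kidney cadherin of tubule cells, at 27.2, 29.8 and 25.6 CPM in the WT-SD libraries and 2.57, 2.95 and 2.61 CPM in the KO-SD libraries (log2 fold change -3.34 ± 0.11 (SE), adjusted p = 7.2e-22). Alcam was higher at 28.7, 31.2 and 28.4 CPM in the WT-SD libraries and 82.3, 77.9 and 76.0 CPM in the KO-SD libraries, and Cdh3, P-cadherin, at 3.77 against 13.0 CPM. Of integrins and discoidin receptors, 5 of 15 tested members were higher and 6 lower, with a median of -0.03: the collagen-binding integrins Itga2, at 49.8 against 22.6 CPM, and Itga11, at 154 against 83.6 CPM, were lower, while the collagen receptor Ddr2 was higher.

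Genes of protein synthesis and secretion were slightly but broadly higher. Of the cytosolic ribosomal proteins, 50 of 67 tested were higher and 0 lower, with a median of 0.32 and none by more than 2-fold. Their summed level was 2994 to 3105 CPM in WT-SD against 3698 to 3874 CPM in KO-SD, and reads shared with their many pseudogenes are not in the counts. Of aminoacyl-tRNA synthetases, 17 of 20 tested members were higher and 0 lower, with a median of 0.22, with Aars at 213, 208 and 217 CPM in the WT-SD libraries and 324, 343 and 343 CPM in the KO-SD libraries and Gars at 139 against 204 CPM. Of ER chaperones and secretion genes, 22 of 27 tested members were higher and 0 lower, with a median of 0.25, led by Sec24d, of the vesicle coat that exports procollagen, at 138, 137 and 142 CPM in the WT-SD libraries and 204, 204 and 205 CPM in the KO-SD libraries (log2 fold change 0.55 ± 0.027 (SE), adjusted p = 3.4e-17). With library size alone, 42, 14 and 20 members of these lists were higher and 0, 0 and 1 lower.

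The amino acid response genes were higher by more. Of ATF4 targets and amino acid synthesis genes, 25 of 27 tested members were higher and 2 lower, with a median of 0.69, and 6 were more than 2-fold higher. Trib3, a pseudokinase induced by amino acid stress, was at 10.1, 10.0 and 10.1 CPM in the WT-SD libraries and 31.5, 36.7 and 36.9 CPM in the KO-SD libraries (log2 fold change 1.80 ± 0.073 (SE), adjusted p = 2.0e-19), and Pycr1, which makes proline, at 7.84, 7.17 and 8.07 CPM in the WT-SD libraries and 18.7, 18.6 and 17.5 CPM in the KO-SD libraries (log2 fold change 1.25 ± 0.075 (SE), adjusted p = 4.0e-15). Stc2, a secreted glycoprotein, was lower at 19.6, 18.5 and 17.7 CPM in the WT-SD libraries and 11.1, 12.1 and 10.6 CPM in the KO-SD libraries, and Cebpb at 81.5 against 67.1 CPM. Of glycolysis and pentose phosphate genes, 18 of 27 tested members were higher and 5 lower, with a median of 0.33, with the lactate carriers Slc16a1 at 29.3, 27.0 and 28.4 CPM in the WT-SD libraries and 67.1, 67.5 and 63.3 CPM in the KO-SD libraries and Slc16a3 at 9.96 against 21.6 CPM the highest rises and Ldhb, at 54.4 against 36.9 CPM, and Eno2, at 21.6 against 15.1 CPM, lower.

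Mitochondrial and lipid genes differed little. Of respiratory chain and ATP synthase subunits, 23 of 71 tested members were higher and 2 lower, with a median of 0.08, but 7 were higher and 7 lower with library size alone. Cox6b2, a testis-type subunit of complex IV, was lower, at 5.83, 6.0 and 5.65 CPM in the WT-SD libraries and 2.21, 3.04 and 1.79 CPM in the KO-SD libraries. The count of higher members was 15 without WT-SD replicate 1 and 15 without WT-SD replicate 2. Of cholesterol and fatty acid synthesis genes, 10 of 31 tested members were higher and 3 lower, with a median of 0.08, with the desaturase Scd2 at 751, 742 and 765 CPM in the WT-SD libraries and 1105, 1063 and 1102 CPM in the KO-SD libraries. Of fatty acid oxidation and lipid handling genes, 4 of 18 tested members were higher and 3 lower, with a median of 0.02: the fatty acid carrier Fabp5 was higher at 1.90 against 5.61 CPM and the cholesterol exporter Abca1 lower at 430.2, 441 and 426 CPM in the WT-SD libraries and 333, 307 and 300.1 CPM in the KO-SD libraries.

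Chemokines and cytokines were mostly lower. Of chemokines and cytokines, 4 of 25 tested members were higher and 17 lower, with a median of -0.74, also with genes at 0 set to their bound. Il1a, Il1b and Tnf, inflammatory cytokines, were at 0 counts in all 3 KO-SD libraries: Il1a was at 2.73, 2.35 and 3.83 CPM in the WT-SD libraries and 0, 0 and 0 CPM in the KO-SD libraries, at least 21.2-fold lower, and Tnf at least 11.8-fold and Il1b at least 13.1-fold lower. Cxcl16, a membrane-bound chemokine, was at 85.6, 87.5 and 85.8 CPM in the WT-SD libraries and 26.1, 25.4 and 23.2 CPM in the KO-SD libraries (log2 fold change -1.79 ± 0.044 (SE), adjusted p = 7.5e-25), and Cxcl5, which draws neutrophils, at 22.7, 21.6 and 18.7 CPM in the WT-SD libraries and 7.44, 5.94 and 5.78 CPM in the KO-SD libraries (log2 fold change -1.72 ± 0.1 (SE), adjusted p = 2.2e-15). Cxcl12, the most abundant chemokine of the list, was higher, at 1389, 1326 and 1396 CPM in the WT-SD libraries and 1623, 1628 and 1549 CPM in the KO-SD libraries (log2 fold change 0.22 ± 0.026 (SE), adjusted p = 1.5e-08). Csf1, the growth factor of macrophages, was lower at 1099 against 731 CPM. The macrophage markers moved in the same direction as this list, as given above.

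The interferon-inducible lists had no member that was higher. Of interferon-stimulated genes, 19 of 25 tested were lower and 0 higher, with a median of -0.22; 2 fell by more than 2-fold. These were Ifit3b, at 13.9, 14.8 and 14.9 CPM in the WT-SD libraries and 3.72, 4.35 and 4.17 CPM in the KO-SD libraries (log2 fold change -1.83 ± 0.1 (SE), adjusted p = 4.2e-16), and Ifit3, at 39.8, 42.9 and 42.0 CPM in the WT-SD libraries and 17.6, 17.1 and 17.0 CPM in the KO-SD libraries (log2 fold change -1.27 ± 0.067 (SE), adjusted p = 1.5e-16), antiviral proteins with near-identical sequences whose reads are hard to divide. Irf9, a transcription factor of the interferon response, was at 22.3 against 21.6 CPM (adjusted p = 0.51). Of guanylate-binding proteins and immunity GTPases, 7 of 9 were lower and 0 higher, with a median of -0.63. Tgtp1, a T cell-specific GTPase with a close copy in Tgtp2, was at 16.1, 17.1 and 17.1 CPM in the WT-SD libraries and 6.98, 6.13 and 6.24 CPM in the KO-SD libraries (log2 fold change -1.38 ± 0.087 (SE), adjusted p = 1.4e-14), and Irgm1, the most abundant of them, was at 579 against 559 CPM (adjusted p = 0.08).

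A pair of promoters from these lists shows the interferon-stimulated response element, with the matches in capitals. The element is a pair of GAAA repeats with any 2 bases between them, searched on both strands. Each promoter is an example from a member that fell, at 5 CPM or more, and holds the motif. Not every member was eligible for printing: Gbp9 fell further than Tgtp1 (log2 fold change -5.09 against -1.38) and is not printed.
Ifit3b promoter (chr19:34607707-34608006, plus strand): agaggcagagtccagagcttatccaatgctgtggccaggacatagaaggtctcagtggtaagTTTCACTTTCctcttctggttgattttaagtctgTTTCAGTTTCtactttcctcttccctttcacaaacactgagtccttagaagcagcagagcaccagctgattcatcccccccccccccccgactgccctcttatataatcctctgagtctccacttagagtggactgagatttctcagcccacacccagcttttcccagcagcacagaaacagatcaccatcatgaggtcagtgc
Tgtp1 promoter (chr11:48992197-48992496, minus strand): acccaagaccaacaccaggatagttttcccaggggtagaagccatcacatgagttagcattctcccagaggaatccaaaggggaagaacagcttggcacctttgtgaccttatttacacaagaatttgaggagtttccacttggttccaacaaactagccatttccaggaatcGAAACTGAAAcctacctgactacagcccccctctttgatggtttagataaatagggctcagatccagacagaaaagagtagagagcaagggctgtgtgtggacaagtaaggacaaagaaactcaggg

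In Ifit3b the matches, read as TTTCACTTTC and TTTCAGTTTC on the printed strand, lie 188 and 154 bases before the start, and in Tgtp1 a single match (GAAACTGAAA) lies 77 bases before it. The element was in 9 of 21 interferon-stimulated genes with a window (42.9%) and in 8 of 8 GTPases with a window, against 2.76% of tested genes with a window and 3.49% of all RefSeq genes. It was in 3 of 30 mitosis windows.

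Antigen presentation and complement followed in part. Of MHC class I presentation genes, 3 of 14 tested members were higher and 9 lower, with a median of -0.24. H2-K1, a classical class I heavy chain, was at 132, 131 and 135 CPM in the WT-SD libraries and 51.6, 56.1 and 51.4 CPM in the KO-SD libraries (log2 fold change -1.32 ± 0.037 (SE), adjusted p = 1.7e-23), and H2-Q4, a non-classical chain, at 6.93, 6.13 and 7.07 CPM in the WT-SD libraries and 1.19, 1.21 and 0.688 CPM in the KO-SD libraries (log2 fold change -2.70 ± 0.18 (SE), adjusted p = 4.5e-14); class I genes share sequence, so their reads can be divided wrongly. The members that were higher were the ER chaperones Calr, at 527, 560.5 and 557 CPM in the WT-SD libraries and 728, 709 and 713 CPM in the KO-SD libraries, Pdia3, at 706 against 873 CPM, and Canx, which serve other proteins too. Of complement genes, 4 of 11 tested members were higher and 5 lower, with a median of -0.12, with the inhibitor Serping1 lower at 6.15, 6.17 and 6.25 CPM in the WT-SD libraries and 1.06, 1.55 and 1.51 CPM in the KO-SD libraries and the protease C1s1 lower at 522 against 337 CPM.

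In the TGF-β and BMP pathway, 14 of 41 tested members were higher and 21 lower, with a median of -0.08. Among ligands, Tgfb3 was higher at 224, 217 and 229 CPM in the WT-SD libraries and 385, 369 and 360.4 CPM in the KO-SD libraries (log2 fold change 0.73 ± 0.028 (SE), adjusted p = 4.2e-20), Tgfb1 was at 59.6 against 70.3 CPM and Bmp4 and Bmp6 were lower at 143 against 92.2 CPM and 59.0 against 31.5 CPM. Gdf15, a stress-induced ligand, was lower at 12.6, 11.8 and 13.1 CPM in the WT-SD libraries and 2.25, 4.01 and 2.89 CPM in the KO-SD libraries (log2 fold change -2.04 ± 0.13 (SE), adjusted p = 3.6e-14). Among receptors, Tgfbr2 was higher at 181 against 269 CPM and Tgfbr1 was not called (adjusted p = 0.37).

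The transducers Smad2 and Smad4 were not called (adjusted p = 0.97 and 0.65), and Smad3 was at 154 against 143 CPM. Smad6, Smad7 and Smad9, of the BMP arm and of feedback inhibition, were lower, at 46.4 against 27.9 CPM, 75.3 against 58.9 CPM and 24.6 against 10.6 CPM. The inhibitor-of-differentiation genes, classical targets of BMP, were all 4 lower: Id4 was at 12.3, 14.1 and 12.5 CPM in the WT-SD libraries and 3.17, 4.01 and 2.98 CPM in the KO-SD libraries (log2 fold change -1.94 ± 0.12 (SE), adjusted p = 3.0e-15), Id2 at 34.3 against 18.2 CPM, Id1 at 16.6 against 13.6 CPM and Id3 at 93.6 against 78.5 CPM. Tgfbi, a matrix target of TGF-β, was higher, from 0.480 ± 0.12 CPM in WT-SD to 4.86 ± 0.41 CPM in KO-SD. Fst, the activin trap follistatin, was lower at 402 against 214 CPM, and Fstl3, a relative, higher at 11.1, 11.8 and 12 CPM in the WT-SD libraries and 16.3, 18.7 and 17.1 CPM in the KO-SD libraries. The receptors, the Smad genes, Id1 to Id3, Tgfbi and Fst were named after their values were seen.

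Of Wnt pathway genes, 14 of 31 tested members were higher and 11 lower, with a median of 0.12. Ligands were split: Wnt2b, as above, and Wnt10b, at 1.69, 2.22 and 2.74 CPM in the WT-SD libraries and 7.49, 8.84 and 8.12 CPM in the KO-SD libraries, were higher, and Wnt16 was lower. Sfrp2, a secreted Wnt antagonist, was lower, at 8.52, 8.82 and 11.4 CPM in the WT-SD libraries and 0.873, 0.338 and 0.826 CPM in the KO-SD libraries (log2 fold change -3.79 ± 0.21 (SE), adjusted p = 5.7e-16). Of Notch pathway genes, 1 of 9 was higher and 4 lower: the receptor Notch3 was at 66.1, 66.2 and 65.3 CPM in the WT-SD libraries and 82.5, 80.9 and 87.3 CPM in the KO-SD libraries, the ligand Jag1 at 328 against 274 CPM and the target Hey2 at 9.06 against 6.04 CPM.

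Of growth factors and receptors, 19 of 40 were higher and 19 lower. Pdgfb, the ligand that recruits mesangial cells in development, was lower at 15.2, 14.5 and 14.5 CPM in the WT-SD libraries and 3.26, 4.01 and 3.39 CPM in the KO-SD libraries (log2 fold change -2.05 ± 0.09 (SE), adjusted p = 1.7e-18), and so was Pdgfd at 20.1, 21.1 and 17.1 CPM in the WT-SD libraries and 6.57, 5.12 and 5.64 CPM in the KO-SD libraries. Vegfd was higher at 10.1 against 26.4 CPM, and Nrp2, a co-receptor for VEGF and semaphorins, at 115, 115 and 121 CPM in the WT-SD libraries and 371, 359 and 365 CPM in the KO-SD libraries (log2 fold change 1.64 ± 0.029 (SE), adjusted p = 1.2e-28). Of axon guidance genes, 17 of 39 were higher and 13 lower. With library size alone the counts were 14 and 16, and the calls over all genes turned toward lower as well. The netrin receptor Unc5c was at 26.2, 25.9 and 25.7 CPM in the WT-SD libraries and 124, 119.9 and 118 CPM in the KO-SD libraries (log2 fold change 2.22 ± 0.039 (SE), adjusted p = 2.0e-28). Ephb6, a kinase-dead Eph receptor, was at 38.2, 36.6 and 33.8 CPM in the WT-SD libraries and 9.10, 10.7 and 10.5 CPM in the KO-SD libraries.

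Of vasoactive receptors and regulators, 9 of 26 tested members were higher and 12 lower, with a median of -0.08. Rgs5, a regulator of G protein signalling in pericytes, was higher at 55.3, 65.8 and 57.9 CPM in the WT-SD libraries and 148, 123 and 119 CPM in the KO-SD libraries (log2 fold change 1.12 ± 0.059 (SE), adjusted p = 1.9e-16), and the phosphodiesterase Pde1a at 3.52 against 10.1 CPM. The sphingosine phosphate receptor S1pr3 was lower at 32.7, 31.4 and 31.8 CPM in the WT-SD libraries and 11.5, 13.1 and 11.9 CPM in the KO-SD libraries, and Ptgis, prostacyclin synthase, at 5.42, 5.30 and 5.15 CPM in the WT-SD libraries and 1.24, 1.16 and 1.33 CPM in the KO-SD libraries. Of potassium and calcium channels, 6 of 13 tested members were higher and 5 lower, with a median of 0.16. Cacna1g, a T-type calcium channel, was lower at 157, 158 and 166 CPM in the WT-SD libraries and 45.4, 48.9 and 48.0 CPM in the KO-SD libraries (log2 fold change -1.76 ± 0.041 (SE), adjusted p = 1.6e-25), and Cacna2d1, an auxiliary subunit, higher at 100.4 against 157 CPM.

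Positional and lineage factors differed gene by gene. Of HOX cluster genes, 7 of 30 were higher and 10 lower, with a median of 0.02, -0.05 with library size alone. The 4 higher by more than 2-fold were Hoxc11, at 1.28, 1.39 and 1.46 CPM in the WT-SD libraries and 7.21, 7.0 and 7.2 CPM in the KO-SD libraries (log2 fold change 2.37 ± 0.14 (SE), adjusted p = 4.2e-15), Hoxc13, at 2.37, 1.91 and 1.69 CPM in the WT-SD libraries and 7.17, 6.28 and 7.25 CPM in the KO-SD libraries, Hoxd10, at 11.1 against 29.6 CPM, and Hoxb9, at 53.8 against 135 CPM, which lie toward the 5′ ends of their clusters. Hotair, a non-coding RNA antisense to the HOXC cluster and named after its value was seen, was also higher, at 0.638, 0.869 and 0.593 CPM in the WT-SD libraries and 3.45, 4.10 and 3.49 CPM in the KO-SD libraries (log2 fold change 2.38 ± 0.21 (SE), adjusted p = 4.6e-11). Hoxc8 was lower at 61.6, 67.9 and 63.2 CPM in the WT-SD libraries and 38.7, 38.9 and 38.7 CPM in the KO-SD libraries and Hoxb7 at 19.3 against 12.8 CPM. Of the developmental transcription factors, 18 of 51 tested members were higher and 22 lower, with a median of -0.04, with Klf2 higher at 5.19, 4.21 and 4.97 CPM in the WT-SD libraries and 11.3, 12.5 and 13.0 CPM in the KO-SD libraries, Klf5 higher at 2.85 against 6.97 CPM, and Wt1 and Sim2 lower as above.

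Remodeler genes mostly differed by small amounts. Of nucleosome remodelers, 17 of 36 tested members were higher and 9 lower, with a median of 0.08. With library size alone 7 were higher and 13 lower, and the calls over all genes turned toward lower too (2446 higher and 4161 lower). Smarca5, the ISWI ATPase that the study examined with lncMGC, was at 61.8, 60.9 and 59.2 CPM in the WT-SD libraries and 67.7, 59.1 and 58.3 CPM in the KO-SD libraries, which overlapped (log2 fold change 0.03 ± 0.046 (SE), adjusted p = 0.65). Smarca2, the BAF ATPase BRM, was lower at 185, 188 and 176 CPM in the WT-SD libraries and 92.0, 86.2 and 92.3 CPM in the KO-SD libraries (log2 fold change -1.02 ± 0.036 (SE), adjusted p = 5.9e-21), and Chd7 at 10.3, 12 and 10.9 CPM in the WT-SD libraries and 5.79, 6.95 and 7.39 CPM in the KO-SD libraries. Pbrm1, a PBAF subunit, was higher at 203 against 258 CPM.

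Of imprinted genes outside the locus, 10 of 21 were higher and 6 lower, with a median of 0.10. Zim1 was at 16.5, 13.4 and 14.8 CPM in the WT-SD libraries and 33.4, 35.3 and 33.9 CPM in the KO-SD libraries and its neighbour Peg3 at 512 against 884 CPM, both higher, as was Peg10. Plagl1, a zinc finger factor, was lower at 22.2, 23.5 and 20.7 CPM in the WT-SD libraries and 16.0, 16.7 and 14.6 CPM in the KO-SD libraries and Impact at 306 against 237 CPM. The non-coding H19 was at 74.7 against 89.7 CPM (adjusted p = 0.1).

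Redox genes were more often lower. Of antioxidant and redox genes, 8 of 30 tested members were higher and 14 lower, with a median of -0.11. Cybb, the phagocyte NADPH oxidase subunit, was at 8.88, 9.04 and 8.30 CPM in the WT-SD libraries and 0.735, 1.01 and 0.826 CPM in the KO-SD libraries (log2 fold change -3.34 ± 0.17 (SE), adjusted p = 7.9e-17), with the macrophage markers lower as given above, and Gpx3 fell too. Prdx4, the peroxiredoxin of the ER, was higher at 35.3, 35.3 and 36.3 CPM in the WT-SD libraries and 49.3, 49.0 and 48.9 CPM in the KO-SD libraries. Of lysosome and autophagy genes, 13 of 37 tested members were higher and 10 lower, with a median of 0.02, and 10 were higher and 15 lower with library size alone; the cathepsins Ctsz and Ctsd were lower, at 87.7 against 40.2 CPM and 1860 against 1388 CPM.

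Of hypoxia targets, 13 of 20 tested members were higher and 5 lower, with a median of 0.29: the oxidase Ero1l was higher at 51.7 against 77.3 CPM, while Epas1, the hypoxia-inducible factor HIF-2α, was lower at 21.3, 22.5 and 22.2 CPM in the WT-SD libraries and 11.6, 11.5 and 11.7 CPM in the KO-SD libraries and the vasodilator Adm at 5.47 against 3.38 CPM. Of AP-1 and immediate-early genes, 8 of 26 tested members were higher and 10 lower, with a median of -0.05, with Egr3 higher at 5.54 against 9.98 CPM and Ier3 lower at 47.5, 51.3 and 51.3 CPM in the WT-SD libraries and 29.2, 31.6 and 30.4 CPM in the KO-SD libraries. Of YAP-TEAD targets, 12 of 27 tested members were higher and 10 lower, with a median of 0.05, and 8 were higher and 13 lower with library size alone; Ccn1 was higher at 357, 359 and 369 CPM in the WT-SD libraries and 564, 546 and 536 CPM in the KO-SD libraries. Of circadian clock genes, 4 of 18 tested members were higher and 6 lower, with a median of -0.06, none by more than 2-fold.

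Across the genome the called genes were spread over all chromosomes. The share of tested genes higher by more than 2-fold ran from 1.37% on chromosome 16 to 5.41% on chromosome 13, and the share lower from 1.85% on chromosome 14 to 5.25% on chromosome X. Chromosome 12, which holds lncMGC, had 12 higher and 8 lower of 404 genes tested. The median log2 fold change of a chromosome was between -0.05 and 0.07 except on chromosome 14, where it was 0.14 over 379 genes. The median exon length was 4209 bases for genes higher and 3790 bases for genes lower by more than 2-fold, and 4414 bases over all genes tested. Of the genes with fold change >2, 5 higher and 10 lower ones were lncRNAs, as were 226 of all 11478 genes tested.

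The same genotypes were sequenced with TGF-β in 6 other libraries, which test the genotype difference again without sharing a library with the comparison in serum depletion, though the source cultures may be the same. There, 27.3% of genes passed FDR <5% with a higher level in KO-TGF and 27.8% with a lower level. Of the 358 genes lower by more than 2-fold in KO-SD, 336 were lower in KO-TGF, 3 were higher and 19 were not called, and their median was -1.51 in serum depletion and -1.75 with TGF-β. Of the 372 genes higher, 246 were higher in KO-TGF, 6 lower and 120 not called, and the median went from 1.54 to 0.70.

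The interaction term, which tests whether the genotype difference itself differed between the 2 culture conditions, passed FDR <5% for 25.4% of all genes. It passed for 255 of the genes higher in KO-SD, with the smaller difference under TGF-β in 243, and for 156 of the genes lower, with the smaller difference under TGF-β in 62 and the larger in 94. The genes were chosen for a large difference in serum depletion, and the part of that choice in the smaller values under TGF-β was not tested.

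**Figure D4:**
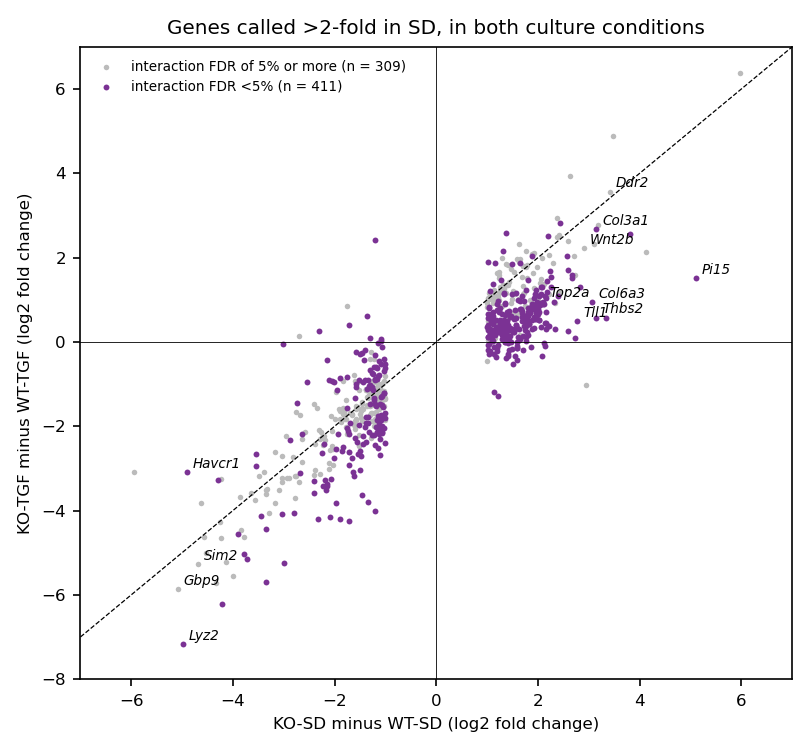
Genotype difference with TGF-β (y axis) against that in serum depletion (x axis), both as log2 fold change of KO over WT, for 720 of the 730 genes called at fold change >2 in serum depletion (10 with 0 counts in a whole group are left out); purple points have an interaction at FDR <5% and the dashed line marks equal differences. Genes lower in KO-SD spread along the line, and most genes higher in KO-SD lie under it.

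The lists differed in how far their genotype difference was seen with TGF-β. Of the 35 mitosis genes, 29 passed with a higher and 0 with a lower level in KO-TGF, with a median of 0.71, and the interaction passed for 33 of them; the summed level was 165 to 172 CPM in WT-TGF and 248 to 257 CPM in KO-TGF, both below WT-SD. Of the 37 DNA replication genes, 9 passed with a higher and 3 with a lower level in KO-TGF, with a median of 0.06, with 31 interactions. Of the 67 ribosomal proteins, 47 passed with a higher and 0 with a lower level in KO-TGF, with a median of 0.29, with 3 interactions. Of the 20 contractile genes, 17 passed with a higher and 3 with a lower level in KO-TGF, with a median of 0.58.

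Of the 27 collagens, 13 passed with a higher and 9 with a lower level in KO-TGF, with a median of 0.00, with 23 interactions. The cholesterol and fatty acid synthesis genes, of which few were called in serum depletion, were higher in the TGF-β libraries: of 31, 29 passed with a higher and 0 with a lower level in KO-TGF, with a median of 0.70, and the interaction passed for 28. Of the 25 interferon-stimulated genes, 1 passed with a higher and 18 with a lower level in KO-TGF, with a median of -0.34. Of the 25 chemokines and cytokines, 3 passed with a higher and 17 with a lower level in KO-TGF, with a median of -0.71.

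**Figure D5:**
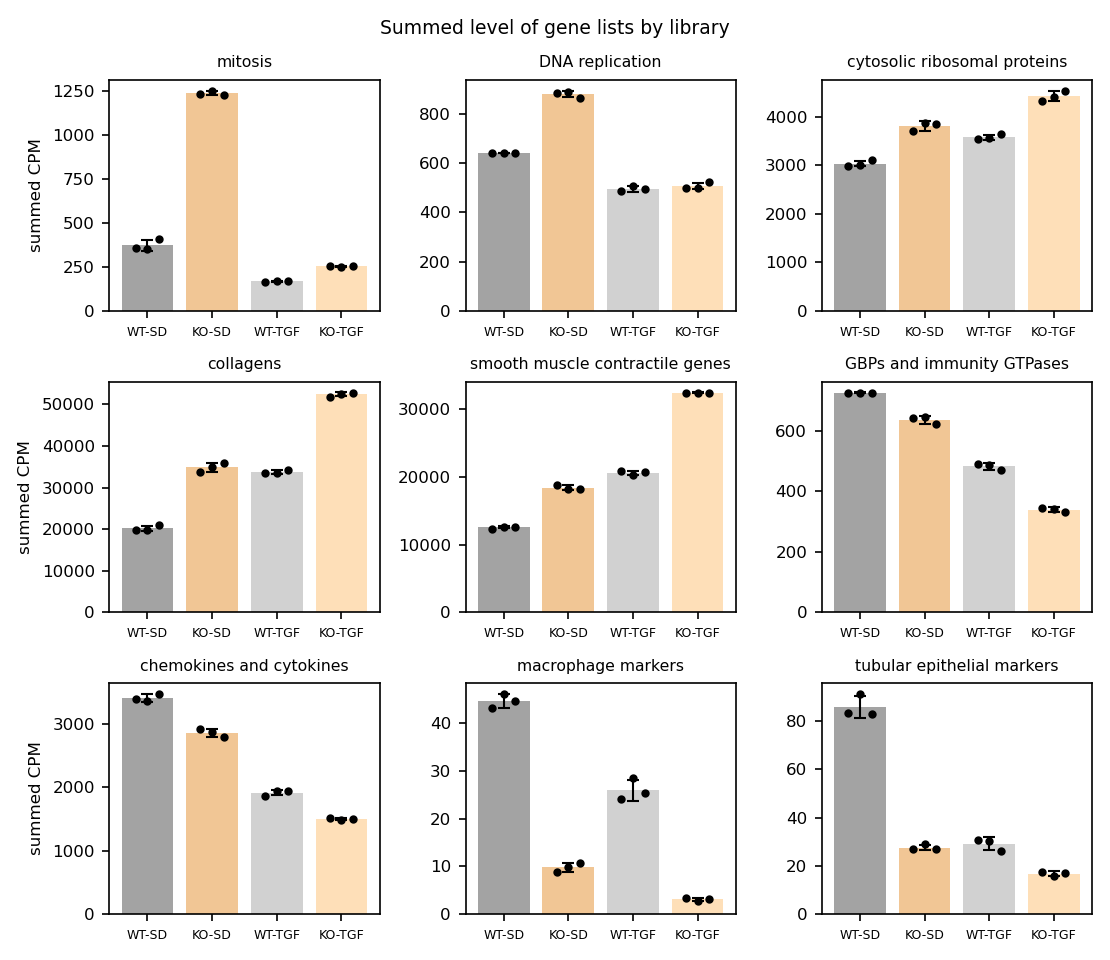
Summed CPM of 9 gene lists in each of the 12 libraries (points), with the mean of each group as a bar from 0 and the SD of 3 libraries as an error bar; GBPs are guanylate-binding proteins. The mitosis sum is highest in KO-SD, at 1230 to 1252 CPM, and macrophage and tubular markers are highest in WT-SD.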

How the data were processed

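RNA-seq of mouse mesangial cells was read as raw counts per gene that the authors deposited, 1 whole number per RefSeq gene and library. Per the study's methods, single-end mRNA reads were aligned to mm10 with TopHat and counted by strand with HTSeq-count at an alignment quality of at least 10; reads with several alignments are not counted, so near-identical genes are uncertain. Totals of unassigned reads were left out.

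Genes with RPKM >1 in at least 1 of 12 libraries were tested, with exon lengths from the annotation. Counts were scaled by TMM and fitted in edgeR 4.0.16 (R 4.3.3, limma 3.58.1) with the quasi-likelihood test over all 4 groups, contrasting KO with WT in each condition, and their interaction. Differentially expressed genes had FDR <5% (Benjamini-Hochberg) and fold change >2; values of genes under the filter come from a model without it. The scripts were tested on simulated data. CPM values use TMM-scaled library sizes, folds against groups at 0 use a floor of 3 counts per library, and intervals cover counting error only.

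Named genes were the 10 largest folds in each direction at 5 CPM or more without overlap, the 6 largest changes in CPM, and up to 2 members per list and direction; locus and marker genes were added, and Ccnb1, Top2a, Mki67, Smc4, Mcm5, Cdc6, Cenpf, Rrm2, single collagen chains, Clic5, Cldn1, Pax8, Csf1, Il1a, Il1b, Tnf, Irf9, Irgm1, Hoxd10, Hoxb9, Peg3 and H19 were chosen after their values were seen. The largest folds and the largest changes in CPM were taken from genes called at fold change >2. The members and lists were chosen with earlier results of these data known. Alternatives were DESeq2 1.42.0, library size scaling, other filters, a replicate block, the 6 SD libraries alone and leaving out each library. Promoter windows were RefSeq sequences of GRCm38.p6.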

Additional observations from a re-analysis of the deposited data

Results flagged for a closer look

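For 19 of the genes named for the largest folds or the largest changes in amount the genotype difference itself differed between serum depletion and TGF-β, by the interaction test at FDR <5% in the edgeR fit of all 12 libraries; the values are KO against WT under TGF-β minus the same in serum depletion, on the log2 scale. The genes looked at were the 10 largest folds and the 6 largest changes in CPM in each direction, with Col3a1 in both sets. Over all genes tested the interaction passed for 25.4%. The genes were chosen for a large difference in serum depletion, and the part of that choice was not tested.

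Among genes higher in KO-SD, the interaction was -3.58 for Pi15, -2.57 for Thbs2, -2.28 for Tll1, -2.13 for Col6a3, -1.63 for Col12a1, -1.53 for Cthrc1, -1.25 for Cavin2 and -1.09 for Peg10. It was smaller in size for the collagens Col11a1 (-0.76), Col8a1 (-0.73), Col3a1 (-0.46) and Col1a1 (-0.23). The genotype difference with TGF-β was 2.68 for Col3a1 against 3.14 in serum depletion, and -0.20 for Col12a1.

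Among genes lower in KO-SD, the difference was smaller under TGF-β for Havcr1 (1.83), Cul9 (1.02) and Slc6a6 (0.10). It was larger for Lyz2 (-2.17), Cp (-0.43), Gpx3 (-0.21) and Svep1 (-0.17).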

How the results depend on the processing

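None of the 730 genes called at fold change >2 changed direction under any alternative that tested it, and between 662 and 723 of them passed again. Without a filter on expression, 600 genes were higher and 1007 lower, 1082 called genes had the same call in the TGF-β libraries (582 with the filter), and 16 cholesterol and fatty acid synthesis genes and 16 imprinted genes were higher (10 of each with the filter). With CPM >1 in at least 3 libraries, 607 genes were lower. These settings test other sets of genes. Of respiratory chain genes, 14 were higher with DESeq2 and 7 with library size alone, which also left 7 nucleosome remodelers higher; the cause was not tested. Library size alone moved the median of all genes to -0.05, and 52.6% of DESeq2's calls were of genes higher in KO-SD. Of 2294 values for named genes under alternatives, 34 lost and 6 gained the call, and none with a call changed direction.

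Leaving out each library in turn gave 360 to 376 genes higher and 346 to 362 lower, 3221 to 3471 and 2615 to 2799 at any fold, and 15 to 25 respiratory chain genes higher. Replicate numbers did not pair the libraries (correlations of deviations of 0.03, -0.03 and 0.06, and WT-SD replicate 2 correlated best with KO-SD replicate 1). With the replicate number as a block, 369 genes were higher and 354 lower. Depth limits genes of a few counts, such as the macrophage markers in KO-SD.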
